A study of Mus musculus with 12 samples.

Results

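The genes described here encode the receptors for glutamate, GABA and glycine. They were chosen by their symbols alone. The choice took every gene column of the count table named for an ionotropic or metabotropic glutamate receptor, a GABA-A or GABA-B receptor subunit or a glycine receptor subunit, which gave 52 of the 24489 gene columns. They comprise 4 AMPA (Gria), 5 kainate (Grik), 7 NMDA (Grin), 2 delta (Grid) and 8 metabotropic glutamate receptor genes (Grm), 19 GABA-A (Gabra to Gabrr) and 2 GABA-B genes (Gabbr) and 5 glycine receptor genes (Glra and Glrb).

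Hair cells of the cochlea release glutamate onto the peripheral endings of spiral ganglion neurons (SGNs), and AMPA receptors on those endings carry the fast synaptic current. AMPA, kainate, NMDA, GABA-A and glycine receptors are ion channels assembled from several subunits, so the subunits that a cell makes set the composition of the channel. Metabotropic glutamate and GABA-B receptors signal through G proteins instead. Efferent fibres of the olivocochlear system, some of which use GABA, also contact SGN endings and hair cells. Type I SGNs, with the subtypes Ia, Ib and Ic, contact inner hair cells, and type II SGNs contact outer hair cells.

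Single cells of the mouse cochlea were collected on embryonic days (E14.5 through E18.5, a day apart) and on postnatal day 3 (P3), sorted by flow cytometry for the tdTomato reporter and sequenced with Smart-seq2, which reads full-length transcripts without molecular identifiers. The labels give the genotype PVcre;Ai14, in which a Cre driven from the parvalbumin gene switches on the reporter, for 11 plates and TrkCcre for replicate 2 of E14.5. No mutant was compared. For E14.5 the methods of the study name a Cre line of Ntrk3, the gene for TrkC, whereas the label of replicate 1 reads PVcre;Ai14. The label of the TrkCcre plate names no reporter. The embryos were pooled within a collection, and the P3 cells came from an earlier experiment of the same group. Each 384-well plate was 1 deposited sample, with 3 plates at E16.5, 1 at E17.5 and 2 at each of the other stages. Plates were treated as replicates. Nothing in the labels says that plates of one stage came from different litters, so p-values measure the spread between plates.

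After filtering, 4226 of 4608 wells were kept, with 80997594 to 303906928 counts per plate and a median of 232473 to 1092427 counts per cell, highest at P3. No cell name occurred on more than 1 plate. Clustering without the receptor genes gave 2269 SGN-like, 1257 glia-like, 575 otic mesenchyme (OM)-like and 86 hair cell (HC)-like cells, and 39 cells stayed unnamed. Among the 1193 SGN-like cells of E17.5, E18.5 and P3, 269 were Ia-like, 551 Ib/Ic-like, 69 II-like and 160 immature or intermediate, and the rest stayed unnamed. All 11 SGN markers were present in SGN-like sums, where they summed to 14305 to 18170 CPM, read counts scaled to a common total, and all 10 HC markers in HC-like sums. The plates differed in other RNA: the 8 glial markers made up 0.00268 to 0.0175% of the SGN-like counts on the 6 plates labelled SS2_20 and 0.0809 to 0.327% on the other 6 plates, highest at E18.5 and P3. The OM-like and glia-like sums of some plates outside SS2_20 held SGN markers at up to 9776 and 9842 CPM, against medians of 255 and 747 CPM. The cell types of a plate share its preparation, and counts of a sum cannot tell fewer expressing cells from less RNA per cell.

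The receptor genes were spread over a wide range in SGN-like cells. Averaged over the 12 plates, 18 of the 52 genes had at least 10 CPM, 35 had at least 1 CPM and 17 had less than 1 CPM. Per kilobase of exon, which allows genes to be compared, high mean levels were those of Gabbr1 (33.9 CPM per kb), the GABA-binding subunit of the GABA-B receptor, Gria4 (19.9 CPM per kb), Gria3 (16.6 CPM per kb) and Glrb (12.7 CPM per kb). Summed per family on the same scale, the GABA-A genes came to 43.0, the AMPA genes to 42.8 and the 2 GABA-B genes to 39.0 CPM per kb, and the kainate genes to 14.4, the metabotropic glutamate genes to 10.2 and the NMDA genes to 9.42. The glycine receptor sum rested on the P3 plates: it was 15.3 CPM per kb over all plates, 5.85 over the 10 embryonic plates and 62.5 at P3, and Glrb alone was at 3.42 and 59.3 CPM per kb. Of the AMPA genes, 3 of 4 exceeded 10 CPM, whereas 9 of the 19 GABA-A genes were under 1 CPM.

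**Figure D1:**
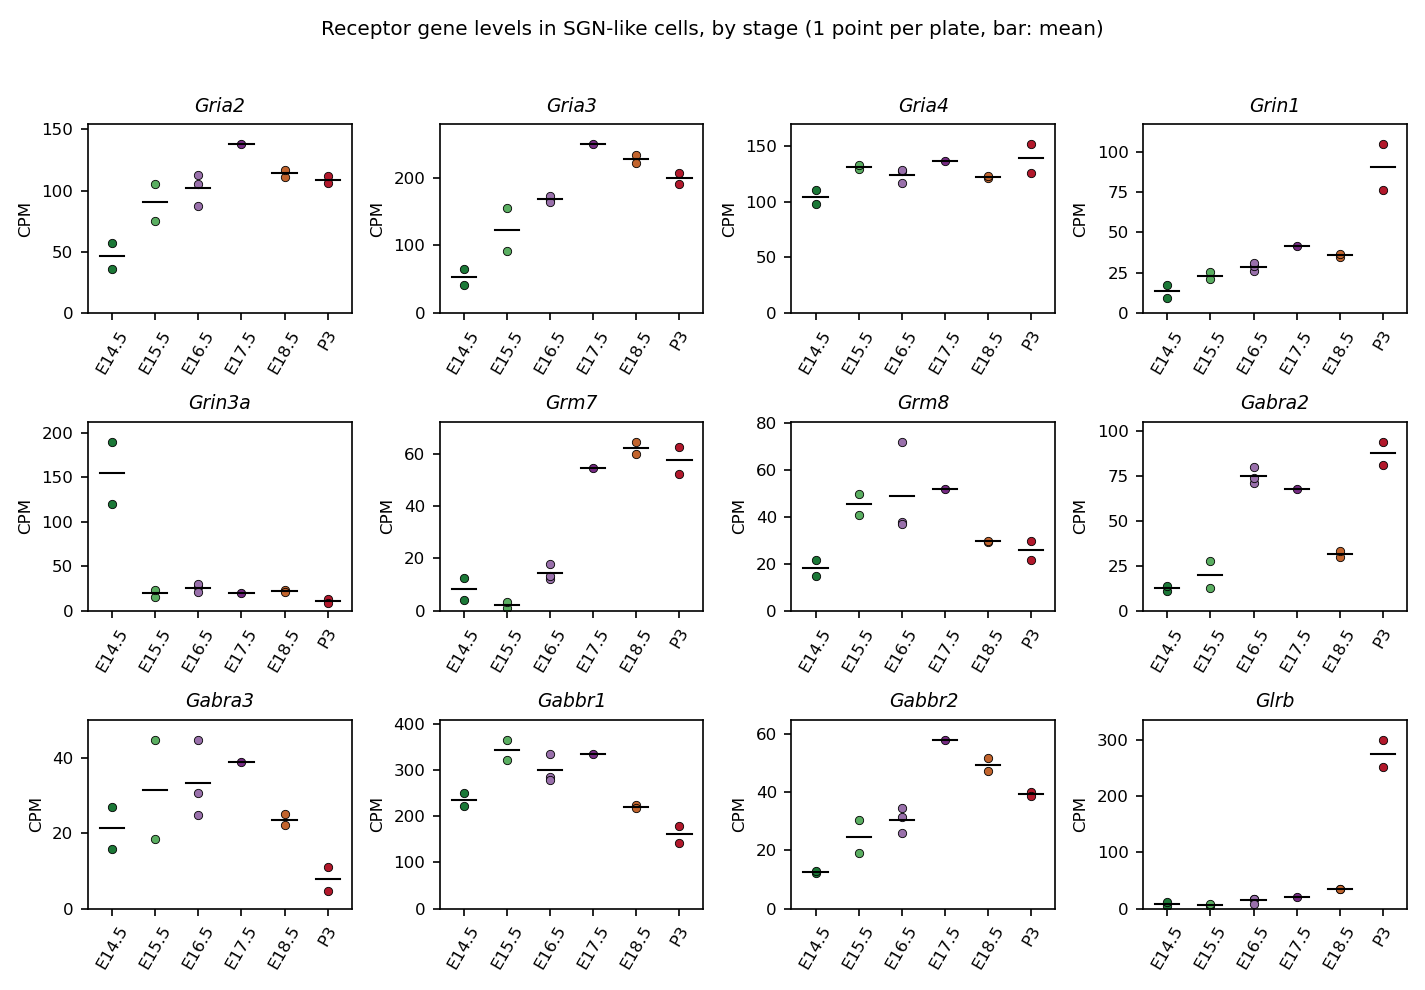
Levels of 12 receptor genes in SGN-like cells by stage. The y axis is CPM of the summed counts of the SGN-like cells of 1 plate (linear, from 0), each point is a plate and the bar is the mean of the stage; Glrb stands at 252 and 300.3 CPM on the P3 plates against at most 34.8 CPM before, and Grin3a at 190 and 120.2 CPM at E14.5 against at most 29.5 CPM later.

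The comparison of stages asks how the receptor set of the neurons changes while they extend to their targets and diversify. From E14.5 to E17.5/E18.5 (3 plates against 2), AMPA subunits Gria2 and Gria3, the NMDA subunit Grin1, Grm7, Gabbr2, Gabra2 and the glycine receptor subunit Glrb rose between 2.57- and 7.15-fold, Gabrb1 and Gabrb2 also rose, and the NMDA subunits Grin3a, Grin2a and Grin2d fell. Of the 44 genes that passed the filter on low counts, 12 were called (edgeR's quasi-likelihood test, adjusted p under 0.05 over all genes tested), 9 higher and 3 lower at the later age. Of all 16716 genes tested, 21.8% were called, 1999 of them higher and 9.82% of all genes lower. The median log2 difference was 0.40 over the 44 receptor genes and 0.06 over all genes. The methods of the study name an Ntrk3 Cre line for E14.5 and a PV Cre line for the later embryonic stages. By the labels only replicate 2 of E14.5 differed in Cre line from the later plates. Age and Cre line therefore cannot be fully told apart in this comparison.

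The promoter windows of RefSeq on GRCm38.p6, 250 bases before to 50 bases after each start, held 43 entries for 36 of the 52 genes. They were searched on both strands for short motifs, all chosen after the values were known. A first search used 6 letter strings, of which CAGCACC was in 7.14% of all 32851 windows and in 2 of the 43 windows of receptor genes and GGACAG in 22.2% and 17. The E-box CAGATG was in 17.2% and 3, the SP1 string GGGCGG in 35.7% and 22, the CRE string TGACGTCA in 1.79% and 0, and the NRF1 string in 0.971% and 1. CAGCACC and GGACAG are parts of the RE1 element, which the repressor REST binds at many neuronal genes. RE1 was then searched in 2 joined forms: AGCACC and GGACAG with any 2 bases between them, and CC and GGACAG with any 2 bases between them. The long form was in 0.0517% of all windows and, among the receptor genes, in that of Gria2. The short form, which lies within the long one, was in 2.19% of all windows and in those of Gria2, Grin1 and Gabbr2, all of which rose from E14.5 to E17.5/E18.5. These 3 windows are shown for that short form, 1 of the 8 searches. The window of Glrb, the called gene with the largest rise at P3, is shown beside them and holds neither joined form, though it does hold GGACAG and GGGCGG. Capitals mark the match of the joined forms, the sequences are 5′ to 3′ on the gene's strand, and all 4 genes lie on the minus strand (Gria2 at chr3:80802786-80803085, Grin1 at chr2:25319138-25319437, Gabbr2 at chr4:46991665-46991964 and Glrb at chr3:80913611-80913910).
Gria2: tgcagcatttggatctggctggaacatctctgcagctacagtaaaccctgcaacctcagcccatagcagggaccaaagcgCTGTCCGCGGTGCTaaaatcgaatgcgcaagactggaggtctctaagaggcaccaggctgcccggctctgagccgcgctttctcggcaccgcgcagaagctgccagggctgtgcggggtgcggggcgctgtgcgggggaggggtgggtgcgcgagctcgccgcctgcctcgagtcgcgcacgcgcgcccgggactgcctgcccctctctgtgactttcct
Grin1: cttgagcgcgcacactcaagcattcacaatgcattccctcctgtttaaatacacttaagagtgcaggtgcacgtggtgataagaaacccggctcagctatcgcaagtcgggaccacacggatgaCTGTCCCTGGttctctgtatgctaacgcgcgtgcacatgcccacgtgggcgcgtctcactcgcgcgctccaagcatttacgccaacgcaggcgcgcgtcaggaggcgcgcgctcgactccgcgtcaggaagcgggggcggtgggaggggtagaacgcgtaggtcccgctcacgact
Gabbr2: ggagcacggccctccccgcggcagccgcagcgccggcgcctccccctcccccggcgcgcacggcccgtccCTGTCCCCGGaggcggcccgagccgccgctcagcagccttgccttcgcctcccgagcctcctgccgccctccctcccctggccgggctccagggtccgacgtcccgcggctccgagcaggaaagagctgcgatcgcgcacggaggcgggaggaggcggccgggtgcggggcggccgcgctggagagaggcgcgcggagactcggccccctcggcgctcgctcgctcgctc
Glrb: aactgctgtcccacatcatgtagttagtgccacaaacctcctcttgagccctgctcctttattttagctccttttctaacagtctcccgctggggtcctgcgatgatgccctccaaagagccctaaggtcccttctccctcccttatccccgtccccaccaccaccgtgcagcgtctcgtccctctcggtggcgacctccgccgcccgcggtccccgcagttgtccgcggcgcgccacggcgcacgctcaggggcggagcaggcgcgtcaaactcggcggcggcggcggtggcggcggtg
The match began 170 bases before the start in Gria2, 126 in Grin1 and 180 in Gabbr2. A match of letters is a description of the sequence, and binding was not measured.

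Among the AMPA genes, which carry fast excitation, Gria2 encodes the subunit whose edited form keeps calcium out of the channel. Its level in SGN-like cells was 35.8 and 57.0 CPM at E14.5, 105 and 75.5 at E15.5, 113, 106 and 87.3 at E16.5, 138 at E17.5, 111 and 117 at E18.5, and 106 and 112 at P3. Both E14.5 plates lay below all others, and the plates of E16.5, E18.5 and P3 overlapped. The gene rose 2.57-fold to E17.5/E18.5 (log2 1.36 ± 0.22 SE, adjusted p = 0.00153, edgeR) and differed by −0.18 ± 0.21 between P3 and E17.5/E18.5 (adjusted p = 0.554).

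Gria3, another AMPA subunit, measured 41.6 and 64.9 CPM at E14.5, 155 and 91.3 at E15.5, 168.2, 173 and 165 at E16.5, 250.1 at E17.5, 222 and 235 at E18.5, and 207 and 192 at P3. The rise from E14.5 was 4.33-fold (2.12 ± 0.24, adjusted p = 0.000147, edgeR), and the early and late plates did not overlap. Gria4 was already at 111 and 97.9 CPM at E14.5 and ranged from 117 to 152 CPM afterwards, with a log2 difference of 0.25 ± 0.12 to E17.5/E18.5 that did not pass (adjusted p = 0.157, edgeR). Gria1 was at 2.61 CPM or less on every plate and was read, with each cell thinned to 100000 counts, in 3.15% of the SGN-like cells of E14.5. At P3 it was read in 0.805%.

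The NMDA receptor needs the obligatory subunit encoded by Grin1, while Grin2 subunits bind glutamate and Grin3 subunits, when built in, lower the calcium flux. Grin1 measured 9.49 and 17.4 CPM at E14.5, 25.5 and 20.8 at E15.5, 25.7, 28.8 and 30.9 at E16.5, 41.2 at E17.5, 34.7 and 36.5 at E18.5, and 76.3 and 105 at P3. The gene rose in both steps, by 1.45 ± 0.26 to E17.5/E18.5 (adjusted p = 0.00267) and by a further 1.25 ± 0.24 to P3 (adjusted p = 0.00253, edgeR), without overlap between the 3 groups of plates. Of its exon bases, 13.5% are shared with Grin1os, an antisense gene. Whether the counting used strand is not given in the sources used here.

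Grin3a went the other way. It stood at 190 and 120.2 CPM at E14.5, 15.6 and 23.8 at E15.5, 26.9, 29.5 and 21.3 at E16.5, 19.5 at E17.5, 23.0 and 21.5 at E18.5, and 13.0 and 8.59 at P3. The E14.5 plates lay far above every later plate, and both P3 plates below every other. The fall to E17.5/E18.5 was 7.41-fold (−2.89 ± 0.26, adjusted p = 4.76e-05) and that to P3 2.003-fold (−1.002 ± 0.27, adjusted p = 0.0156, edgeR). The second was lost without replicate 2 of P3 (−0.73, adjusted p = 0.157). The fall to P3 was not seen in every type. Ib/Ic-like sums were at 6.73 and 9.86 CPM at E18.5 and at 1.56 and 0.738 at P3. Ia-like sums were at 26.2 and 27.2, then 30.6 and 36.3 CPM, and II-like sums at 66.6 and 70.7, then 72.2 CPM. In cells thinned to 100000 counts, 67 of 127 SGN-like cells of E14.5 (52.8%) had a Grin3a read. It was 0.985% in glia-like cells of that age. At E18.5 the shares were 39.1% of SGN-like and 39.3% of glia-like cells. The glia-like sums of that age also held SGN markers, and the shares did not stand apart. At E15.5, E16.5 and E17.5 the glia-like shares were 4.10, 8.13 and 3.38%, against 14.2, 37.4 and 25.7% of SGN-like cells. At E14.5 the median depth was 265885 counts in SGN-like cells and 274742 in glia-like cells. Intervals and floors of counts cover counting error only, since reads without molecular identifiers are not independent molecules.

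The Grin2 subunits stayed low. Grin2a fell from 10.8 and 1.87 CPM at E14.5 to 0.692, 1.10 and 0.319 at E17.5/E18.5 (−3.19 ± 0.98, adjusted p = 0.0388, edgeR), a call that was lost when any one of 8 plates was left out, most clearly without replicate 1 of E14.5 (−1.40, adjusted p = 0.422). Grin2d fell from 13.7 and 8.34 CPM to 6.67, 2.86 and 3.97 CPM (−1.33 ± 0.41, adjusted p = 0.0412, edgeR). Grin2b and Grin2c were at most 3.85 and 3.24 CPM on any plate and were not called. Grin3b fell from a mean of 2.04 CPM at E17.5/E18.5 to 0.408 CPM at P3 (−2.33 ± 0.76, adjusted p = 0.0387, edgeR). Of its exon bases 32.1% overlap Tmem259. The call was lost in 7 of the alternatives, among them without replicate 1 (−3.22, adjusted p = 0.0595) or replicate 2 of P3 (−1.79, adjusted p = 0.245).

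None of the 5 kainate receptor genes was called in either comparison of stages by edgeR. An unadjusted p under 0.05 was found for 1 of them in the first and 2 in the second, without a share of all genes beside it. Grik5 and Grik4 averaged 33.5 ± 9.25 and 31.7 ± 11.3 CPM (SD, n = 12), and Grik2 16.1 CPM. From E17.5/E18.5 to P3 Grik4 differed by −0.96 ± 0.36 (adjusted p = 0.0666) and Grik2 by −0.93 ± 0.34 (adjusted p = 0.061, edgeR). Grik5 differed when all stages were tested together (adjusted p = 0.0192, edgeR), with 47.0 and 38.7 CPM at E15.5 and 21.7 and 22.0 at P3. Grid1, a delta receptor that binds the cerebellin family of synaptic organisers, averaged 7.15 ± 3.94 CPM (SD, n = 12) and was not called in either comparison.

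Of the 8 metabotropic glutamate receptors, the presynaptic group III genes Grm7, Grm8 and Grm4 were the ones measured above 5 CPM on average. Grm7 measured 12.4 and 3.92 CPM at E14.5, 1.18 and 3.52 at E15.5, 11.96, 13.3 and 17.7 at E16.5, 54.4 at E17.5, 60.04 and 64.4 at E18.5, and 52.4 and 62.7 at P3. The plates from E17.5 on lay well above all earlier ones, and the rise from E14.5 was 7.15-fold (2.84 ± 0.50, adjusted p = 0.00236, edgeR). It was 2.75 on the SS2_20 plates alone, where it was not called (adjusted p = 0.0852).

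Grm8 had 14.7 and 21.6 CPM at E14.5 and between 36.9 and 72.0 CPM on the 5 plates of E15.5 and E16.5. It differed among stages (adjusted p = 0.0378), but the difference of E17.5/E18.5 from E14.5 did not pass (1.00 ± 0.37, adjusted p = 0.0749, edgeR). Grm4 fell at P3, from 6.73, 3.09 and 2.76 CPM at E17.5/E18.5 to 0.452 and 0.651 CPM (−2.94 ± 0.52, adjusted p = 0.00167, edgeR), with no overlap between the plates. Among SGN-like cells with a low glial share the difference was −2.47 and not called (adjusted p = 0.152). Grm5 was uneven, at 7.74 CPM on replicate 2 of E15.5 and 0 on replicate 1, and Grm2, Grm3 and Grm6 averaged less than 1 CPM.

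GABA-A receptors are chloride channels of alpha, beta and a further subunit. The alpha subunit gene Gabra2 measured 11.1 and 13.9 CPM at E14.5, 27.6 and 12.6 at E15.5, 71.2, 73.7 and 80.1 at E16.5, 67.9 at E17.5, 30.2 and 33.5 at E18.5, and 81.4 and 93.9 at P3. Both E18.5 plates lay below the plates of E16.5, E17.5 and P3, so that the course was not a steady one. The difference of E17.5/E18.5 from E14.5 passed (1.77 ± 0.40, adjusted p = 0.00916; 1.65 and 0.0658 without replicate 1 of E14.5) and that of P3 from E17.5/E18.5 did not (0.98 ± 0.36, adjusted p = 0.0594, edgeR).

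Gabra3 measured 39.0, 22.0 and 24.98 CPM at E17.5/E18.5 and 10.99 and 4.69 CPM at P3, a fall of 3.70-fold (−1.89 ± 0.50, adjusted p = 0.0151, edgeR; −1.40 and 0.136 without replicate 2 of P3). Gabrb2 rose from 3.91 and 8.15 CPM at E14.5 to 20.0, 16.8 and 21.3 CPM at E17.5/E18.5 (1.65 ± 0.40, adjusted p = 0.0134) and fell to 8.14 and 6.00 CPM at P3 (−1.47 ± 0.39, adjusted p = 0.0146, edgeR). The fall was not called without replicate 1 of P3 (adjusted p = 0.0501) or replicate 2 (adjusted p = 0.127). By type, the fall of Gabrb2 to P3 was not seen in every class. Ib/Ic-like sums were at 13.8 and 21.04 CPM at E18.5 and at 5.005 and 3.05 at P3. Ia-like sums were at 8.23 and 15.9, then 6.73 and 16.7 CPM, and II-like sums at 26.3 and 16.6, then 18.1 CPM. Immature or intermediate sums, absent at P3, were at 24.9 and 33.996 CPM at E18.5. The part of this mix of types in the fall was not tested. Gabrb1 was at 0 and 3.17 CPM at E14.5 and between 18.505 and 20.1 CPM at E17.5/E18.5 (3.59 ± 1.05, adjusted p = 0.032, edgeR), a call lost without replicate 2 of E16.5 (adjusted p = 0.0501) or without replicate 1 (0.0663) or 2 of E18.5 (0.0694). For all 3 subunits the SGN-like sums of the groups compared did not overlap.

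Gabra5 differed among stages (adjusted p = 0.0259, edgeR) and ranged from 4.798 CPM at E15.5 to 32.7 CPM at P3.

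The GABA-B receptor is an obligate pair of the 2 subunits, of which Gabbr2 couples to the G protein. Gabbr1 was high throughout, at 251 and 222 CPM at E14.5, 322 and 366 at E15.5, 285, 280 and 336 at E16.5, 336 at E17.5, 224 and 218 at E18.5, and 178 and 143.2 at P3. The P3 plates were the lowest, and the fall from E17.5/E18.5 was 1.64-fold (−0.71 ± 0.19, adjusted p = 0.0175, edgeR). Gabbr2 measured 12.4 and 12.9 CPM at E14.5, 30.4 and 19.1 at E15.5, 25.9, 31.5 and 34.6 at E16.5, 58.1 at E17.5, 51.9 and 47.2 at E18.5, and 40.3 and 38.9 at P3. It thus rose 4.06-fold from E14.5 to E17.5/E18.5 (2.02 ± 0.23, adjusted p = 0.000188, edgeR), whereas Gabbr1 differed by 0.10 ± 0.19 over that time (adjusted p = 0.739).

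Glrb encodes the beta subunit of the glycine receptor, which joins alpha subunits and binds the scaffold gephyrin. Its levels were 3.68 and 10.9 CPM at E14.5, 4.73 and 7.51 at E15.5, 17.46, 16.8 and 8.53 at E16.5, 20.8 at E17.5, 34.8 and 34.1 at E18.5, and 252 and 300.3 at P3. The rise from E14.5 to E17.5/E18.5 was 4.05-fold (2.02 ± 0.46, adjusted p = 0.00976) and the later one to P3 9.06-fold (3.18 ± 0.41, adjusted p = 0.00026, edgeR), with no overlap in either. The first was lost without replicate 1 of E14.5 (1.47) and on the SS2_20 plates alone (1.52 ± 0.74). The second was called with any one plate left out. In thinned cells the share with a Glrb read was 6.30% at E14.5, 67.9% at E18.5 and 99.2% at P3 in SGN-like cells. In glia-like cells it was 12.3% at E14.5 and 83.9% at E18.5, and at these ages the share in SGN-like cells was not the higher one. At E15.5 the shares were 11.1% of SGN-like and 10.9% of glia-like cells. At E16.5 they were 38.4 and 13.0% and at E17.5 38.6 and 8.70%. Glra2, the alpha subunit of immature neurons, averaged 7.87 ± 4.94 CPM (SD, n = 12) and was not called between stages. Glra1, Glra3 and Glra4 were at 0.300 CPM or less on every plate.

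**Figure D2:**
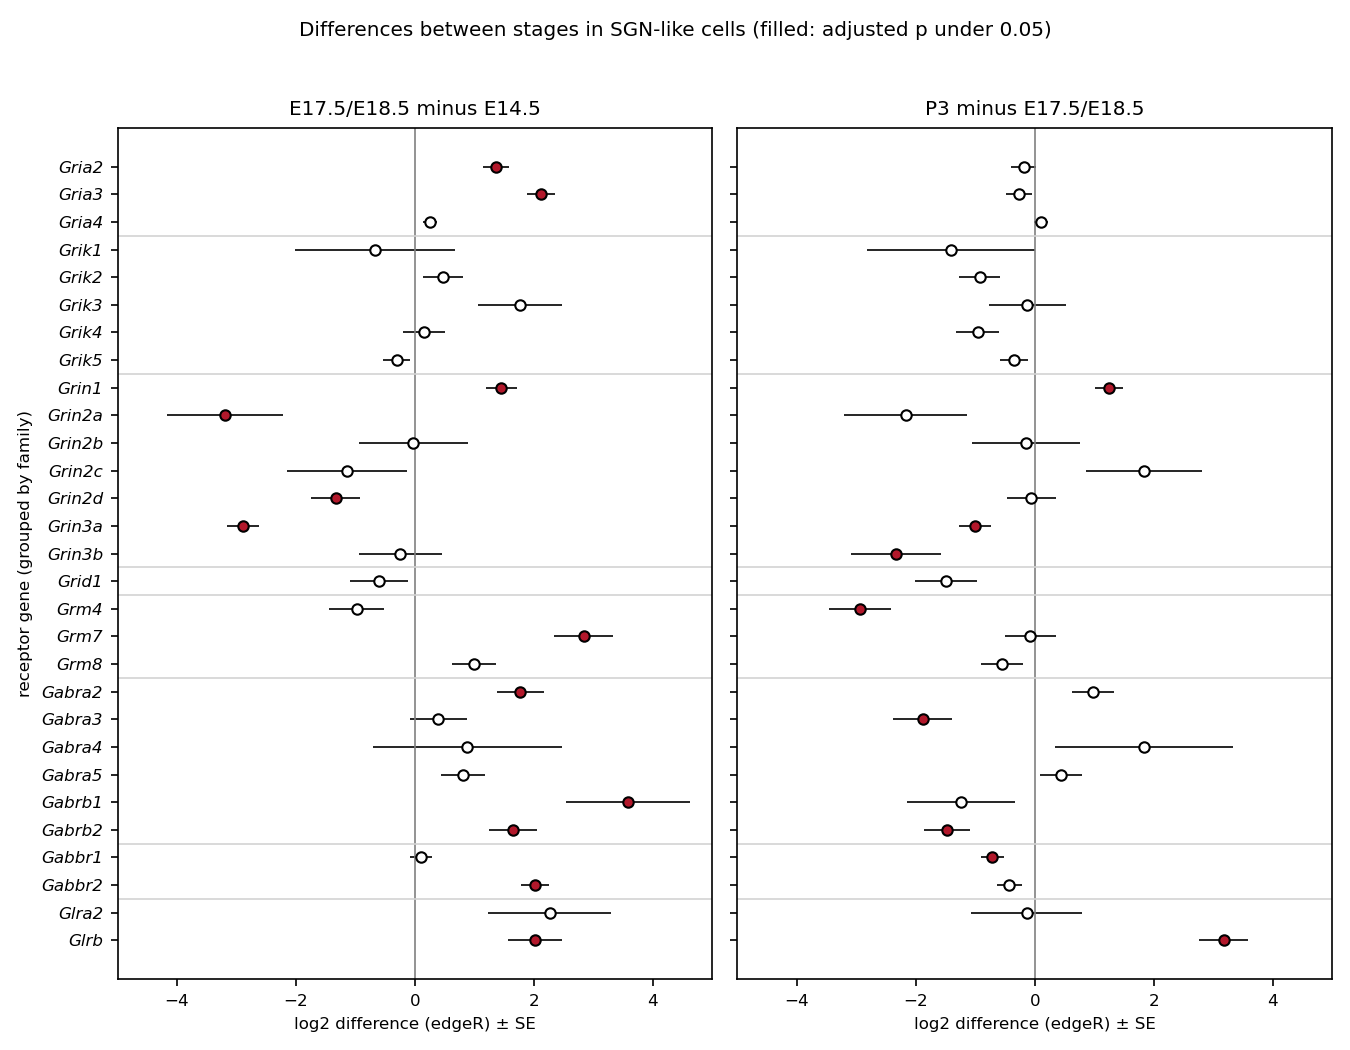
Differences between stages in SGN-like cells for 29 receptor genes, grouped by family. The x axis is the log2 difference fitted by edgeR with its standard error, left for E17.5/E18.5 minus E14.5 and right for P3 minus E17.5/E18.5; filled points passed adjusted p under 0.05, and Gabrq and Grm5, with standard errors above 2, are not drawn. Most filled points lie right of 0 on the left and left of 0 on the right, where Glrb stands out at 3.18.

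Between E17.5/E18.5 and P3 (3 plates against 2), 8 of the 44 receptor genes were called, Glrb and Grin1 higher and Grm4, Grin3b, Gabra3, Gabrb2, Grin3a and Gabbr1 lower at P3, in a background where 29.9% of all genes tested were called, 14.9% higher and 15.1% lower. The median log2 difference was −0.39 for the receptor genes and −0.07 for all genes. The P3 plates belong to another plate series than the embryonic ones, so age and plate series cannot be told apart. The SGN-like sums also pool types whose cell numbers differed between the ages, with immature or intermediate sums at E17.5 and E18.5 only. The part of this mix in the differences was not tested. Tested for any difference among stages, 19 of 44 receptor genes were called, against 45.3% of all genes.

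The glial RNA in the SGN-like sums and the plate series moved with age, and the comparison of E17.5/E18.5 with E14.5 was therefore repeated in subsets. On the SS2_20 plates alone, where the share of glial markers was lowest, the later arm was the 1 plate of E17.5. That plate was assumed to vary like the plates of E14.5 and E15.5. The TrkCcre plate of E14.5 is an SS2_20 plate, so this subset does not part age from Cre line. There 6 of 40 genes were called against 5.81% of all genes: Gria2 (1.58 ± 0.32), Gria3 (2.24 ± 0.34), Gabra2 (2.45 ± 0.45), Gabbr2 (2.21 ± 0.38), Grm8 (1.53 ± 0.33) and Grin3a (−2.98 ± 0.42, adjusted p = 0.0067, edgeR). Among SGN-like cells with a glial share at or below the median of their plate, 11 of 41 genes were called, 10 of them higher, against 21.3% of all genes.

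The comparison of cell classes asks which receptor genes belong to the neurons and which to the cells sorted with them. Glia-like cells were set against SGN-like cells of the same plates at E14.5 to E17.5 (8 plates). Grik1, Grik2 and Gabre were among 5 genes higher in the glia-like sums and 20 genes were lower, which made 25 of 37 genes called. Of all 14042 genes tested 59.2% were called, 27.7% higher and 31.5% lower. The median log2 difference was −2.23 for the receptor genes and −0.04 for all genes. Both medians cover only genes that passed the filter, and genes read almost only in SGN-like sums can pass it.

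Grik1, a kainate subunit, ranged from 6.41 to 275 CPM (median 83.8) in glia-like sums and from 0.0514 to 14.9 CPM (median 4.04) in SGN-like sums (4.35 ± 1.39, adjusted p = 0.0225, edgeR). It was higher on 8 of 8 plates, and the ranges overlapped only through the glia-like sum of E16.5 replicate 2, an SS2_18 plate. The glia-like sums of both SS2_18 plates come from 18 and 9 cells and hold SGN markers at high levels. Without them the ranges did not overlap and the difference was 5.54 ± 1.22.

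Grik2 was at 38.7 to 76.1 CPM in glia-like and 8.52 to 20.7 CPM in SGN-like sums (1.74 ± 0.23, adjusted p = 0.000343, edgeR). Gabre, the epsilon subunit of GABA-A receptors, was at 4.03 to 9.18 against at most 1.04 CPM (6.02 ± 1.13, adjusted p = 0.00178, edgeR). Both were higher on 8 of 8 plates with no overlap between the classes. Grik1 is on a list of glial genes published with the study, which was drawn up from these cells and is not independent evidence of its direction.

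Among the genes lower in glia-like sums were Gria4, Grm4, Grm8, Gabra5 and both GABA-B subunits. Gabbr1 kept a measurable level in glia-like cells, 39.0 to 58.9 CPM on the 6 plates outside SS2_18 against 222 to 366 CPM (−2.23 ± 0.30, adjusted p = 0.000387, edgeR, over 8 plates). Gria3 was at 40.0 to 108 CPM in glia-like sums and 41.6 to 250.1 CPM in SGN-like sums, lower on 8 of 8 plates, by −0.73 ± 0.17 (adjusted p = 0.00549, edgeR). Without both SS2_18 plates 27 of 35 genes were called, against 61.2% of all genes in that fit, and Gabrb2 joined the higher genes (1.75 ± 0.29, adjusted p = 0.00121, edgeR), with 30.2 to 49.6 CPM on the 6 glia-like sums left.

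OM cells surround the ganglion, and OM-like cells were compared on 7 plates of E14.5 to E16.5. Gria1 and Gabre were among 3 genes higher than in SGN-like cells and 17 genes were lower, 20 of 36 in all, in a background of 46.1% of 13831 genes, 22.3% higher and 23.8% lower. Gria1, the AMPA subunit that SGN-like cells all but lacked, had 52.0 and 44.8 CPM at E14.5, 122 and 49.2 at E15.5, and 0, 3.24 and 20.4 at E16.5 in OM-like sums (5.07 ± 1.44, adjusted p = 0.0209, edgeR). The low values at E16.5 were those of the SS2_18 plates, with 5 and 10 OM-like cells. On the 5 other plates it ranged from 20.4 to 122 CPM against at most 2.61 CPM in SGN-like sums, without overlap (6.39 ± 1.02). In thinned cells of E14.5 a Gria1 read was found in 13.4% of OM-like and in 0 of 203 glia-like cells.

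Gabre was higher in OM-like sums on 6 of 7 plates (5.15 ± 1.75, adjusted p = 0.0402, edgeR). The call of Gabre was lost when any one of the 5 SS2_20 plates was left out. Gabrq had no count in any OM-like sum against 575 counts in the SGN-like sums of those plates, which put it at least 81.3-fold higher in SGN-like cells by a floor of 3 counts over the group. Gabra5 had no count in the OM-like sums outside SS2_18 either, against 874 counts in SGN-like sums, and was at least 438-fold higher there. Without both SS2_18 plates Glrb passed as higher in OM-like cells (1.99 ± 0.34, adjusted p = 0.00326, edgeR), with 15.53, 21.9, 29.2, 25.9 and 41.5 CPM.

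Hair cells of the cochlea are the presynaptic partners of SGNs. HC-like cells were compared on 5 plates, 3 of which held 4 to 8 such cells. The study set vestibular hair cells, which SGNs do not contact, apart from cochlear ones, and the HC-like sums here were not divided. Gata3, a gene of cochlear hair cells, was read in 60 of the 86 HC-like cells. Of the 32 receptor genes that passed the filter, none was called higher and 16 were called lower than in SGN-like cells. Of all 13695 genes tested, 18.1% were called, 8.85% higher and 9.27% lower. With the Gata3-positive cells alone 19 of 33 receptor genes were called, all lower, against 3462 of all 13875 genes. Grm2 did not pass the filter with all HC-like cells. It was at 3.89, 0, 0, 12.4 and 6.79 CPM in HC-like sums, against at most 0.699 CPM in SGN-like sums. Grm4 was at 0, 0, 0, 15.6 and 8.71 CPM against 2.76 to 6.73 CPM and was not called. Over all HC-like cells the median log2 difference was −4.13 for the receptor genes and −0.30 for all genes. Both medians cover only genes that passed the filter. Genes read almost only in SGN-like sums, such as Gabra2 and Gabra3, can pass it, so the medians depend on the filter as well. Gria2 was at 0, 0, 0, 2.04 and 7.75 CPM in HC-like sums against 87.3 to 138 CPM (−6.59 ± 1.09, adjusted p = 0.00822, edgeR), and Gabbr2 at 0 on 4 plates and 1.48 CPM on the fifth against 25.9 to 58.1 CPM (−8.16 ± 1.33, adjusted p = 0.00781, edgeR; not called without replicate 2 of E18.5, adjusted p = 0.0601).

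The GABA-A alpha subunits Gabra2 and Gabra3 were next to absent in HC-like cells. Only 2 counts of Gabra2 and 1 of Gabra3 fell into the 5 sums, so that the pooled level in SGN-like cells was 690 times (95% counting interval 191 to 5700) and 788 times (141 to 31146) that in HC-like cells. Gria4 was at 18.47, 0, 28.4, 27.2 and 23.3 CPM (−2.89, adjusted p = 0.0692), and Gabbr1 at 42.8, 0.944, 55.2, 31.9 and 28.9 CPM (−3.28 ± 0.77, adjusted p = 0.0282, edgeR).

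**Figure D3:**
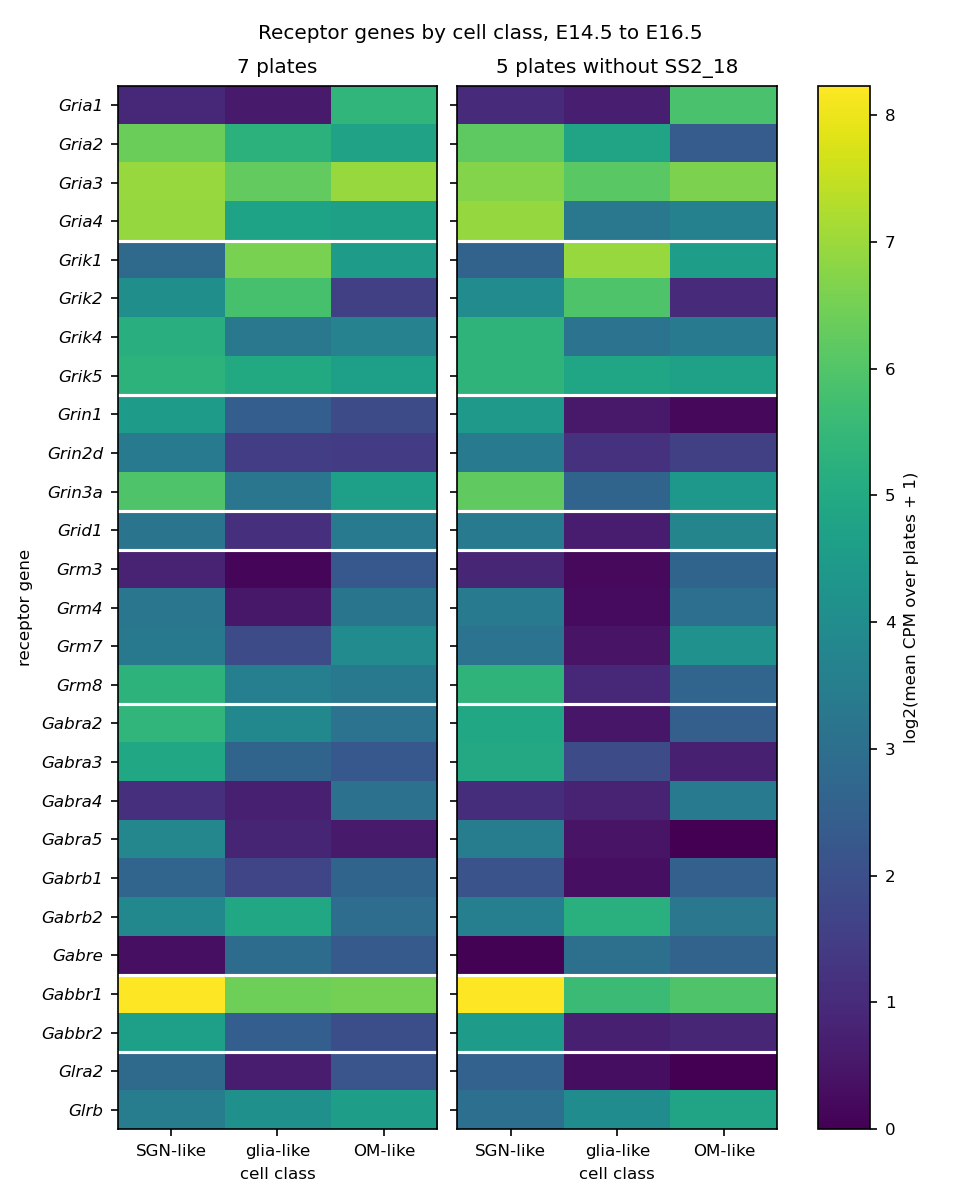
Mean level of 27 receptor genes in SGN-like, glia-like and OM-like cells of the same plates, on the left over the 7 plates of E14.5 to E16.5 and on the right over the 5 of them outside SS2_18. Colour is log2 of the mean CPM plus 1, the rows are genes with a mean of at least 5 CPM in any column, and white lines part the families. The SGN-like column is the brightest for 16 genes in each panel, the glia-like column for Grik1, Grik2, Gabrb2 and Gabre, and the OM-like column in both panels for Gria1, Grid1, Grm3, Grm7, Gabra4 and Glrb, where means are a description and not a call.

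The comparison of SGN types asks whether neurons with different targets carry different receptors. II-like and type I-like sums (the Ia-like and Ib/Ic-like cells together) were available on 3 plates, both of E18.5 and replicate 1 of P3. Grin3a and Grik4 were among 3 genes higher in II-like cells, and Gria3, Gria4, Grm7, Gabra5 and Gabbr2 were lower, which is 8 of 37 genes. Of the background, 5.25% of all 14677 genes tested were called, 2.40% higher and 2.85% lower. Glial markers summed to 2916 to 5732 CPM in the II-like sums and to at most 3267 CPM in type I-like sums, and their part in these differences was not tested.

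Grin3a was at 66.6, 70.7 and 72.2 CPM in the II-like sums and at 14.52, 17.8 and 8.53 CPM in the type I-like sums of the same plates (2.44 ± 0.26, adjusted p = 0.00909, edgeR). In thinned cells of E18.5 a Grin3a read was found in 88.9% of II-like, 49.1% of Ia-like and 20.8% of Ib/Ic-like cells, and at P3 in 86.4%, 49.4% and 4.18%. The classes were far apart on each of the 3 plates.

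Grik4 was at 66.8, 53.0 and 32.1 CPM against 36.0, 29.4 and 15.6 CPM (0.95 ± 0.15, adjusted p = 0.0268, edgeR), higher on each plate though the ranges overlapped. Grik3, another kainate subunit, stood at 30.2, 32.6 and 93.9 CPM in II-like and 5.38 ± 2.65 CPM (SD, n = 3) in type I-like sums and just missed the threshold (3.18 ± 0.67, adjusted p = 0.054, edgeR). A Grik3 read was found in 90.9% of II-like cells at P3, 27.3% of Ia-like cells and none of the 287 Ib/Ic-like cells.

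On the lower side, Grm7 was at 12.4, 15.8 and 6.28 CPM in II-like sums against 58.6, 66.6 and 49.1 CPM (−2.40 ± 0.23, adjusted p = 0.00687, edgeR), and Gabra5 at 4.68, 5.11 and 1.14 CPM against 26.8, 24.4 and 42.2 CPM (−3.19 ± 0.61, adjusted p = 0.0415). Gria3 was at 123, 128 and 78.3 CPM against 229 ± 16.1 CPM (SD, n = 3; −1.07 ± 0.14, adjusted p = 0.0146), Gria4 at 76.7, 89.7 and 93.4 against 133.2 ± 19.5 CPM (−0.59 ± 0.12, adjusted p = 0.0483), and Gabbr2 at 33.5, 28.1 and 26.4 against 50.4 ± 7.92 CPM (−0.75 ± 0.15, adjusted p = 0.0491, edgeR). None of these 5 overlapped between the classes, and neither did genes that were not called, such as Gria2 and Grin1. The share of all genes without overlap is not given here, so this is a description of the values. Gria2 did not share the direction of Gria3 and Gria4, with 141 ± 12.7 against 107 ± 8.60 CPM (0.42 ± 0.13, adjusted p = 0.13, edgeR). These calls rest on few plates: the count was 2 without replicate 1 of E18.5, against 1.18% of all genes. It was 0 without replicate 2, against 0.427%, where Grin3a had an adjusted p of 0.0547 and Grm7 of 0.054 (edgeR). In that fit 14 genes had an unadjusted p under 0.05, a count for which no share of all genes is given here.

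Ia-like and Ib/Ic-like cells were compared on 5 plates. Gabra2 was higher in Ia-like cells and Gria2 and Gria3 were lower, 3 of 34 genes against 3.93% of all 14343 genes tested, 1.96% higher and 1.97% lower. Gabra2 was at 114, 59.8, 53.6, 142 and 159 CPM in Ia-like and 19.6, 15.03, 19.2, 46.5 and 81.9 CPM in Ib/Ic-like sums, from E17.5 over E18.5 to P3, higher on 5 of 5 plates (1.71 ± 0.20, adjusted p = 0.00473, edgeR). Gria3 was at 187 ± 44.6 against 253 ± 37.6 CPM (SD, n = 5; −0.43 ± 0.09, adjusted p = 0.0398) and Gria2 at 93.4 ± 15.3 against 130 ± 27.0 CPM (−0.44 ± 0.10, adjusted p = 0.0483, edgeR), each lower on 5 of 5 plates with overlapping ranges. Without replicate 1 or 2 of E18.5 or replicate 1 of P3, the count of calls was 1 each time, against 1.55, 1.77 and 1.92% of all genes.

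Grin3a and Grik3 were higher in Ia-like cells on 5 of 5 plates, with no overlap, without passing the test. Grin3a was at 26.7, 26.2, 27.2, 30.6 and 36.3 CPM in Ia-like and 10.2, 6.73, 9.86, 1.56 and 0.738 CPM in Ib/Ic-like sums (2.89 ± 0.71, adjusted p = 0.0724), and Grik3 at 9.59 ± 2.65 and 1.67 ± 2.23 CPM (SD, n = 5; 4.70 ± 1.78, adjusted p = 0.239, edgeR). Fitted by age, the Grin3a difference was 1.63 at E17.5/E18.5 and 4.98 at P3, and the change of the difference with age did not pass (3.35 ± 0.51, adjusted p = 0.103, edgeR). In all, 0 of 34 receptor genes and 0.0837% of all genes passed that test. An unadjusted p under 0.05 was found for 8 receptor genes, and Grin3a, Grik3 and Grm8 had the lowest unadjusted p-values among the receptor genes. The share of all genes under that unadjusted threshold is not given here, so the count does not show an excess. Gabbr2 was higher in Ia-like cells on 5 of 5 plates (59.4 ± 12.02 against 40.0 ± 5.75 CPM, SD, n = 5; adjusted p = 0.0558) and Grm8 lower on 5 of 5 (16.3 ± 12.4 against 41.3 ± 13.3 CPM; adjusted p = 0.0985, edgeR). On the 2 E18.5 plates alone 16 of 37 genes were called, Grin3a, Grik3, Gabbr2 and Grm8 among them, where 16.4% of all genes were.

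**Figure D4:**
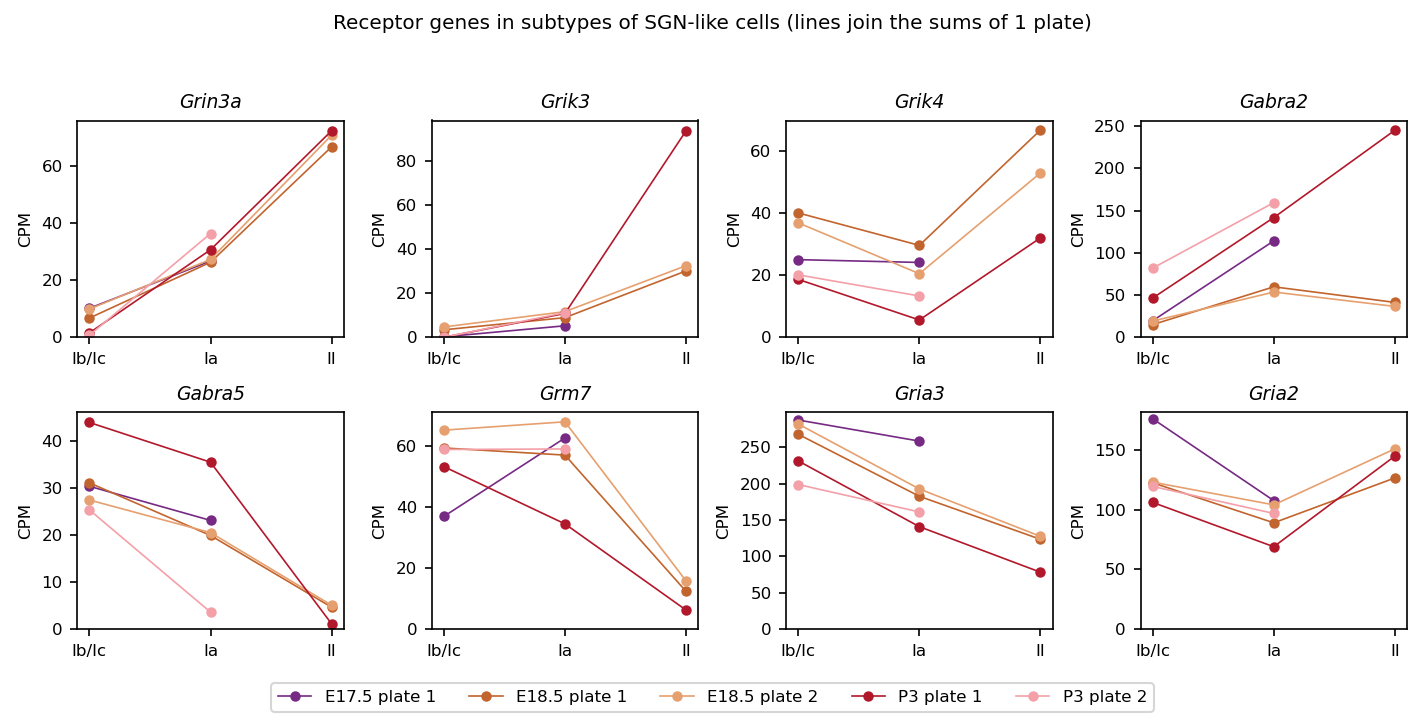
Levels of 8 receptor genes in Ib/Ic-like, Ia-like and II-like sums. The y axis is CPM (linear, from 0), each point is the sum of 1 plate and lines join the sums of a plate; II-like sums exist for 3 of the 5 plates, Grin3a climbs from at most 10.2 CPM in Ib/Ic-like to 66.6 CPM and more in II-like sums on every such plate, and Grm7, Gabra5 and Gria3 are lowest in II-like sums.

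Genes for proteins that accompany the receptors were taken from lists of 38 partners of glutamate receptors and 19 of GABA and glycine receptors. From E14.5 to E17.5/E18.5, 12 of 38 glutamate partners were called, 5 higher and 7 lower, and 6 of 15 tested GABA and glycine partners, 5 higher and 1 lower, against 21.8% of all genes. Dlg2, which encodes the synaptic scaffold PSD-93, rose by 3.24 ± 0.23 (adjusted p = 1.21e-05) and the scaffold gene Shank2 fell by 2.59 on the log2 scale (adjusted p = 0.00232, edgeR). At P3, 13 of 38 and 5 of 15 were called, 11 and 4 of them lower, close to the 29.9% of all genes. Among them were Slc12a5, the chloride exporter KCC2 (−3.51 ± 0.72, adjusted p = 0.00365), and Cbln1, a ligand of delta receptors (−3.70 ± 0.67, adjusted p = 0.00184, edgeR).

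Between cell classes, 26 of 35 glutamate partners were called in glia-like sums, 24 lower, and 17 of 34 in OM-like sums, 15 lower. All genes were called at 59.2% in the first and 46.1% in the second. Of the GABA and glycine partners, 10 of 15 were called in glia-like sums, 8 lower, and 11 of 15 in OM-like sums, 7 lower. In HC-like cells 9 of 33 glutamate partners were called, 4 higher, and 6 of 16 GABA and glycine partners, 2 higher, against 18.1% of all genes. Gad1, the enzyme that makes GABA, was 11.36 ± 1.26 log2 units higher there (adjusted p = 0.00199), and Kctd16, an auxiliary subunit of GABA-B receptors, lower (−9.47 ± 1.08, adjusted p = 0.0022, edgeR).

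In II-like cells 4 of 36 glutamate partners and none of the 15 GABA and glycine partners were called, against 5.25% of all genes. Among them were Shank2, higher (3.45 ± 0.52, adjusted p = 0.0224), and the AMPA auxiliary subunit gene Gsg1l, lower (−3.47 ± 0.58, adjusted p = 0.0293, edgeR). Of the 15, 6 had an unadjusted p under 0.05, a count for which no share of all genes is given here. In Ia-like cells 2 of 36 and 2 of 15 were called, against 3.93% of all genes, with Kctd12 higher (1.91 ± 0.21, adjusted p = 0.00395) and the AMPA auxiliary subunit gene Shisa6 lower (−2.06 ± 0.28, adjusted p = 0.0079, edgeR).

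The 8 genes that passed the filter in no comparison were Grm6, Gabra6, Gabrg3, Gabrr3, Gabrp, Glra1, Glra3 and Glra4, which all stayed at or below 0.333 CPM in SGN-like sums. Grm2, Grm3, Gabra4, Gabrg1, Gabrr1, Gabrr2 and Gabrd were tested and low, Gabra4 with up to 12.5 CPM at P3 (1.84 ± 1.49 against E17.5/E18.5, adjusted p = 0.399, edgeR) and the others at 2.47 CPM or less in SGN-like sums.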

How the data were processed

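The authors mapped the Smart-seq2 reads to mm10 with ERCC spike-in sequences by STAR, kept uniquely mapped reads and deposited raw read counts per gene and well, with 92 ERCC columns. Whether reads were assigned by strand is not given in the sources used here. The members and lists described here were chosen with earlier results of these data known. A plate was 1 sample; 384 wells that matched no sample were not used. Some of the members entered the tests and counts and are not reported here by name. Cells with over 1000 genes and under 5% ERCC counts were clustered stage by stage (scanpy 1.11.5, leidenalg 0.10.2; 2000 variable genes, 30 components, 30 neighbours, resolution 1), with the receptor genes, their partners and 1364 genes of the study's glial list kept out. Clusters were named X-like from fixed marker lists by a rule revised after the cluster tables were seen and before any test; doublets were not called. Counts were summed per class and plate (at least 5 cells, 3 for HC-like) and tested in R 4.3.3 with edgeR 4.0.16 (TMM factors, filterByExpr, quasi-likelihood test, Benjamini-Hochberg over all genes tested, called at adjusted p under 0.05), by stage without a block and between classes with the plate as a block, since the sums of a plate come from one preparation. The ± after a log2 difference is its standard error and after a CPM value the SD over plates. CPM values are on one TMM scale over all sums, and lengths are the union of GENCODE exons. Shares of cells with a read used 100000 counts per cell. Named were the genes called in a comparison, by size of difference; others were named after their values were seen. The test was tried on simulated counts. Alternatives were DESeq2 1.42.0, other factors, filters, cell filters and resolutions, a low glial share, no block, single plate series and each plate left out.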

Additional observations from a re-analysis of the deposited data

Results flagged for a closer look

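Of 23 groups of 4 to 10 sums tested for a sum far from the others on the log2(CPM + 1) scale (Dixon's ratio at the 95% level), 5 were flagged. Chance flags about 1 in 20 groups of values that vary freely. Where all other sums are at 0, any sum above 0 has a ratio of 1 and is flagged, so that rate does not apply. This held for Gabra5 in OM-like sums and for Gabra3, Gabra2 and Gabbr2 in HC-like sums. The count of flags therefore does not show an excess. In OM-like sums, which numbered 7, Gabra5 was at 3.53 CPM in replicate 1 of E16.5 and Gabra3 at 23.04 CPM in replicate 2 of E16.5. Both are SS2_18 plates with 5 and 10 OM-like cells, and their OM-like sums held SGN markers at high levels; the part of SGN RNA in these values was not tested. In HC-like sums, which numbered 5, Gabra3 was at 0.0871 CPM, Gabra2 at 0.174 CPM and Gabbr2 at 1.48 CPM in replicate 2 of E18.5 and each was at 0 in the 4 other sums. The first of these is 1 count and the second 2 counts.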

How the results depend on the processing

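For the 45 named differences, 813 values under alternatives were computed: 751 kept direction and side of the threshold, 62 kept the direction and were no longer called, and 0 changed direction. With each plate left out in turn, the count of called receptor genes ranged from 9 to 13 for E17.5/E18.5 against E14.5, 3 to 12 for P3 against E17.5/E18.5 (3 without replicate 2 of P3), 13 to 22 for OM-like (13 without replicate 1 of E14.5, replicate 1 of E15.5 or replicate 3 of E16.5), 21 to 29 for glia-like, 7 to 19 for HC-like (7 without replicate 1 of E16.5 or replicate 1 of E18.5, 9 without replicate 2 of E18.5), 0 to 15 for II-like (2 without replicate 1 of E18.5, 0 without replicate 2, 15 without replicate 1 of P3) and 1 to 3 for Ia-like cells. Other counts that moved were 6 for E17.5/E18.5 against E14.5 on SS2_20 plates alone; 31 for HC-like with at least 10 cells a sum; 13 with DESeq2, 5 without the top 5% of cells and 15 at E18.5 alone for II-like; and 10 with DESeq2 and 16 at E18.5 alone for Ia-like cells. The fits at E18.5 alone rest on 2 plates, and an arm of 1 plate is assumed to vary like the other groups. Without the plate block, the pairing of sums within plates, the counts were 21 for OM-like, 27 for glia-like, 20 for HC-like, 10 for II-like and 3 for Ia-like cells. Counts in this paragraph without the share of all genes called in the same fit are not a result about the receptor genes. Where that share is given, it moved between settings too. For II-like cells it was 5.25% over all 3 plates, 1.18% without replicate 1 of E18.5 and 0.427% without replicate 2. For Ia-like cells it was 3.93% over all plates and 16.4% at E18.5 alone. The causes were not tested. The few HC-like, II-like and early SGN-like cells limit depth.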

Other observations

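In the immature or intermediate SGN-like cells, which entered no comparison, Grin3a was at 6.03, 30.5 and 17.3 CPM in the sums of E17.5 and of replicates 1 and 2 of E18.5. In the same sums Gabra5 was at 4.58, 2.29 and 4.91 CPM and Grik4 at 26.2, 56.1 and 41.9 CPM. Low Gabra5 was thus not particular to II-like cells, and Grik4 at E18.5 was above its type I-like levels here too.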
